A study of Mus musculus with 6 samples.

Results

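The genes described here are 39 genes of fatty acid uptake, activation and oxidation, chosen by symbol from the 56691 gene rows of a deposited count table. All 39 passed the filter on low counts that left 15429 genes for testing, so every member is accounted for below. They were taken in 6 steps: 6 genes of uptake, 4 of activation, 6 of the carnitine shuttle, 15 of beta-oxidation, 3 of electron transfer, and 5 that are peroxisomal enzymes or acyl-CoA thioesterases. RNA was sequenced from primary heart muscle cells of newborn mice. In the HMGB2 group, labelled with the genotype HMGB2 overexpression, the cells carried an adenovirus in which the promoter of cardiac troponin T (cTNT), active in cardiomyocytes, drives HMGB2, a chromatin-associated protein that bends DNA. In the vector group, labelled Control, the cells carried an adenovirus with the same promoter and no insert named, so both groups had been infected. Each group had 3 libraries. The strain, age in days, virus dose, time of collection and species of the HMGB2 insert are not stated in the labels used here. The labels do not tie replicates to separate cultures or animals, so p-values reflect the variation among these 6 libraries alone, some or all of which may be technical.

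Long-chain fatty acids enter a cardiomyocyte through CD36 and transport proteins, are bound by small fatty acid binding proteins, and are joined to coenzyme A by acyl-CoA synthetases. Carnitine palmitoyltransferases carry them into mitochondria, where repeated rounds of dehydrogenation, hydration, dehydrogenation and thiolysis release acetyl-CoA, and the electrons pass through electron transfer flavoprotein to the respiratory chain. The heart before birth relies largely on glucose and lactate, and oxidation of fatty acids becomes its main source of energy after birth.

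Total counts per library lay between 12498215 and 16618365. The first principal component, with 77.4% of the variance of the 500 most variable genes, separated the HMGB2 from the vector libraries, and the second, with 14.3%, set HMGB2 3 (10.5) and vector 1 (14.2) apart from the other 4 libraries (-8.47 to -4.37). Hmgb2 itself was at 175, 196 and 182 CPM in the HMGB2 libraries, against 46.8, 44.8 and 36.3 CPM in the vector libraries. CPM is a gene's count relative to its library's total after TMM normalization, and FPKM is the authors' value, which is divided by gene length as well. Levels of different genes are compared only per length, and the order depends on the length used. The gene length implied by the deposited FPKM was 1.0 to 5.34 times the principal GENCODE transcript of the 39 genes (median 1.73 times). Shares and ranks of genes are therefore also given on CPM divided by that transcript's length where this matters. Sums over a step are given on FPKM, and for activation on CPM too, but not per transcript length, so their size depends on the implied lengths.

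Most of the pathway was higher with HMGB2. By edgeR's quasi-likelihood test with an adjusted p under 0.05, 26 of the 39 genes rose, 1 fell (Acsl5) and 12 did not pass. Over all 15429 genes tested, 14.4% rose and 10.8% fell by the same rule. At an unadjusted p under 0.05, 29 of the 39 were higher and 1 was lower, and DESeq2 called 26 higher and 1 lower. In the steps where no gene fell by edgeR, 0 genes were lower at an unadjusted p under 0.05 or by DESeq2. All 3 HMGB2 libraries lay above all 3 vector libraries for 30 of the 39 genes, against 21.6% of all genes tested. They lay below them for 2 of the 39, against 2916 of the 15429 genes tested. The median log2 fold change of the 39 genes was 0.50, or 1.41-fold, with a range of -0.26 to 1.27, and the median of all genes tested was -0.0022. Counts of the 39 genes together made up 0.428%, 0.435% and 0.469% of the HMGB2 libraries and 0.325%, 0.299% and 0.295% of the vector libraries. Of the 26 genes that rose, 13 did so by less than 1.5-fold. The 4 genes at 2-fold or more were Cpt2, Acsl1, Cd36 and Cpt1b, of which each belongs to uptake, activation or the carnitine shuttle. Acaa2 and Acadm of beta-oxidation came next, at 1.99-fold and 1.88-fold, so the cutoff does not set the steps apart.

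**Figure D1:**
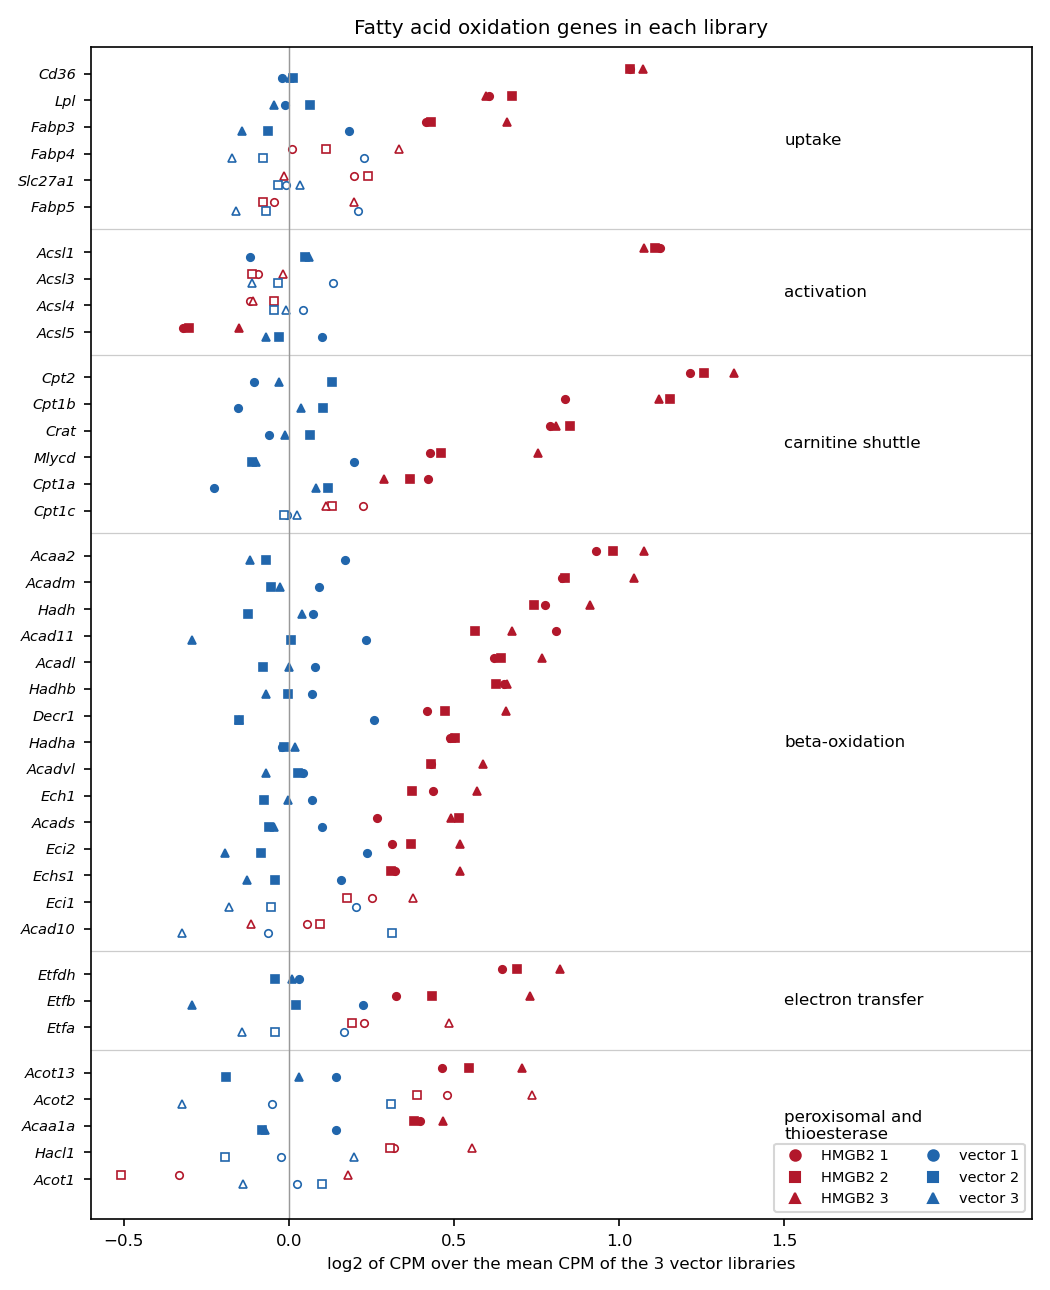
Each row is 1 of the 39 genes, grouped by step, with the log2 of CPM over the mean of the 3 vector libraries on the x axis, HMGB2 libraries in red above and vector libraries in blue beneath. Filled points mark genes past the threshold (26 rose, 1 fell) and open points the other 12; Cpt2, Acsl1, Cd36 and Cpt1b lie farthest to the right.

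Markers of cell types were read from the same fit, in which 14.4% of all genes tested rose and 10.8% fell. In a list of 10 markers, 1 or 2 fallen differ little from that share. Of 12 cardiomyocyte markers, such as Tnnt2, Myh6 and Pln, all were detected, 9 rose, none fell and 3 (Nppa, Ryr2 and Ttn) did not pass by edgeR's test. Their median log2 fold change was 0.68, and their summed level was 24417 to 26447 CPM in the HMGB2 libraries and 17386 to 18201 CPM in the vector libraries. Markers of other cells were also present in both groups. The summed level of 10 fibroblast markers was 6825 to 8205 CPM with HMGB2 and 8027 to 10355 CPM with the vector, which overlap (0 rose, 2 fell). Much of that sum was Fn1, which did not pass, at 3197 ± 749 CPM with HMGB2 and 4498 ± 1301 CPM with the vector (SD, n = 3 each; edgeR adjusted p = 0.171). The summed level of 10 endothelial markers was 2754 to 2802 CPM with HMGB2 and 3129 to 3186 CPM with the vector (0 rose, 2 fell). The 10 macrophage markers summed to 73.0 to 86.3 CPM with HMGB2 and 95.6 to 128 CPM with the vector (0 rose, 3 fell), and the 8 smooth muscle markers to 2222 to 2325 CPM with HMGB2 and 2678 to 2876 CPM with the vector (1 rose, 2 fell). Des, 1 of these 8 and a gene of cardiomyocytes too, made up that gap, since the other 7 summed to 1386 to 1442 CPM with HMGB2 and 1399 to 1455 CPM with the vector, which overlap. Des was not among the 12 cardiomyocyte markers and went the other way from them. It was at 867 ± 28.1 CPM with HMGB2 and 1338 ± 74.4 CPM with the vector (SD, n = 3 each; log2 fold change -0.63, edgeR adjusted p = 0.000256). Where 0 markers of a list moved in a direction, 0 did so at an unadjusted p under 0.05 or by DESeq2. The counts moved with single libraries left out: 0 endothelial markers fell without HMGB2 1, HMGB2 2, vector 2 or vector 3 and 1 without vector 1, 0 macrophage markers fell without vector 2, and the fallen fibroblast markers were 1 without HMGB2 1 or HMGB2 2 and 5 without vector 1. With both HMGB2 3 and vector 1 left out, all 12 cardiomyocyte markers rose, 7 fibroblast markers fell, and 7 endothelial markers fell while 1 rose. That fit called more genes of any kind, with 3265 higher and 2986 lower of 15644 tested. With all 6 libraries these were 2224 and 1662 of 15429. In bulk RNA of this kind, changes in the share of cardiomyocytes, in RNA per cardiomyocyte and in these genes' expression inside the cells cannot be told apart. Of the 39 fatty acid genes, 10 had a log2 fold change above the cardiomyocyte marker median of 0.68, and 29 were at or below it. The part of cell composition in the differences given here was not tested.

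**Figure D2:**
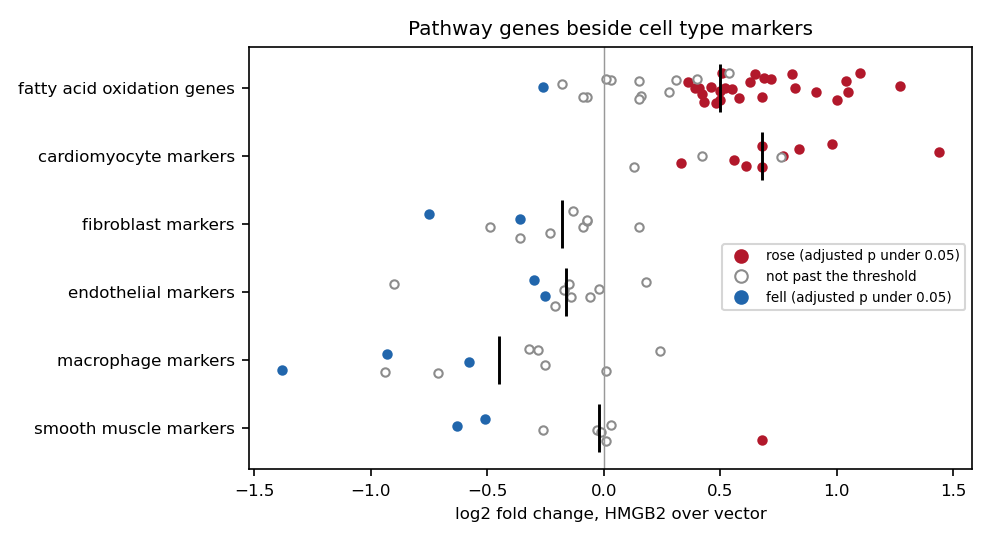
Points are genes, the x axis is the log2 fold change of HMGB2 over vector, and black bars are list medians. The 39 fatty acid genes (median 0.50) and the 12 cardiomyocyte markers (0.68) lie mostly to the right of 0, and the medians of the fibroblast (-0.18), endothelial (-0.16), macrophage (-0.45) and smooth muscle (-0.02) markers lie to its left.

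In the uptake step, 3 of 6 genes rose, none fell and 3 did not pass, with a median log2 fold change of 0.33. Cd36, the membrane protein that takes up long-chain fatty acids, was at 148, 148 and 152 CPM in the HMGB2 libraries and at 71.3, 73.0 and 72.5 CPM in the vector libraries. The groups did not overlap and the spread inside each was small. The mean of 149 ± 2.30 CPM with HMGB2 was 2.07-fold that of 72.3 ± 0.875 CPM with the vector (SD, n = 3 each; log2 fold change 1.05, SE 0.06, edgeR adjusted p = 6.17e-06). Lpl encodes lipoprotein lipase, which frees fatty acids from circulating triglyceride, and it had 539, 565 and 536 CPM with HMGB2 against 351, 370 and 343 CPM with the vector. All 3 HMGB2 libraries were higher, by 1.54-fold (log2 fold change 0.63, SE 0.07, adjusted p = 0.000186).

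Fabp3, the heart form of the fatty acid binding proteins, was at 114, 115 and 135 CPM with HMGB2, against 96.9, 81.8 and 77.5 CPM with the vector. The groups did not overlap, HMGB2 3 was the highest and vector 1 came nearest to the HMGB2 libraries. Fabp3 rose 1.42-fold (log2 fold change 0.50, SE 0.10, adjusted p = 0.00682). Its exons overlap exons of Zcchc17 on the other strand, whose counts were 26.0% of those of Fabp3, and the strand setting of the counting is not given. Fabp4 and Fabp5, forms known from adipocytes, macrophages and endothelium, had log2 fold changes of 0.16 (adjusted p = 0.367) and 0.03 (adjusted p = 0.879), and both overlapped between the groups. Without vector 1, Fabp4 passed the threshold (adjusted p = 0.0367). Fabp5 shares 98.3% identity over 41.4% of its transcript with the copy Gm6166, and with the counts of such copies added its log2 fold change was -0.01 (adjusted p = 0.976), so its direction is not settled. Slc27a1, the transport protein FATP1, had a log2 fold change of 0.15 (adjusted p = 0.285). Adipocytes also express Cd36, Lpl and Fabp4, and 6 adipocyte markers (Adipoq, Plin1, Lep, Cidec, Retn, Cfd) summed to at most 0.069 CPM in an HMGB2 library and 0.358 CPM in a vector library, with Plin1, Lep and Cfd at 0 counts in all 6.

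Cd36 was one of 6 members whose RefSeq promoter window held the letters AGGTCA, the core that nuclear receptors of the PPAR, RXR and ERR families are known to bind. The windows run from 250 bases before to 50 bases after a gene's start on GRCm38.p6, and 31 of the 39 members matched an entry. AGGTCA, read on both strands, was in a window of 19.4% of the 31 members. It was in a window of 14.9% of the 10999 tested genes with an entry and of 18.1% of all 27025 genes. A pair of AGGTCA letters 1 base apart was in no member's window, and in a window of 0.0636% of these tested genes. AGGTCA preceded by TNA was in no member's window either, and in a window of 0.864% of these tested genes. These are matches of letters and not measured binding. The match in Cd36 lies at position -228 from the RefSeq start of its window. GENCODE places Cd36 at 17781690 to 17888801 on the minus strand of chromosome 5. The bases shown therefore lie inside the annotated gene and not before its outermost start. The 40 bases around the match are given on the gene's strand from 5′ to 3′, with the match (here in its reverse complement) in capitals. Cd36 was picked because it had the smallest adjusted p of the 39 genes.
Cd36, chr5:17836102-17836141 (-): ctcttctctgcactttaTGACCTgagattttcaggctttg

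In the activation step, 1 of 4 long-chain acyl-CoA synthetases rose, 1 fell and 2 did not pass, with a median log2 fold change of -0.08. Acsl1, the main form in heart, was at 179, 177 and 173 CPM with HMGB2 against 75.7, 84.9 and 85.7 CPM with the vector. All 3 HMGB2 libraries were above the highest vector library. The rise was 2.14-fold (log2 fold change 1.10, SE 0.07, edgeR adjusted p = 1.01e-05). Acsl5 is another form of the same family, placed in mitochondria and endoplasmic reticulum. It was at 153, 155 and 172 CPM with HMGB2 and at 205, 187 and 182 CPM with the vector. All HMGB2 libraries were lower, with HMGB2 3 and vector 3 closest to each other. Acsl5 fell by 0.26 on the log2 scale (SE 0.08, adjusted p = 0.0395), and it no longer passed without HMGB2 1 (adjusted p = 0.165), HMGB2 2 (0.149), vector 1 (0.0587), vector 2 (0.0910) or vector 3 (0.0605), nor on FPKM (0.0887 and 0.0886 for the 2 pseudocounts) or library totals (0.0655). Its exons overlap those of Zdhhc6 on the other strand. Acsl3, found on endoplasmic reticulum and lipid droplets, had a log2 fold change of -0.07 (adjusted p = 0.579), and Acsl4, which prefers arachidonate, one of -0.09 (adjusted p = 0.373) with no overlap between the groups.

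Whether the summed level of the step differed depended on the scale, while the makeup of the family differed on each. The 4 synthetases summed to 89.0, 90.6 and 94.4 FPKM with HMGB2 and to 95, 87.6 and 87.4 FPKM with the vector, which overlap. Their summed CPM was 537, 545 and 554 with HMGB2 and 514, 489 and 486 with the vector, without overlap. For Acsl1 the FPKM imply a length of 10502 bases, against 3897 bases for its principal transcript, which lowers its weight in the FPKM. Acsl1 took 19.2%, 18.6% and 17.7% of that sum in the HMGB2 libraries and 7.59%, 9.10% and 9.27% in the vector libraries, a difference of 9.85 percentage points. On CPM per transcript length it took 35.9% ± 1.17 with HMGB2 and 18.9% ± 1.83 with the vector (SD, n = 3 each), a difference of 17 percentage points. Which synthetase led with HMGB2 was not settled, since Acsl5 took 36.1% ± 1.54 of the FPKM sum but 29.9% ± 1.49 on CPM per transcript length. With the vector Acsl5 led on both scales, at 43.3% ± 0.897 of the FPKM sum and 40.3% ± 1.28 per transcript length.

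The carnitine shuttle had the highest median of the 6 steps, with a log2 fold change of 0.69. Here 5 of 6 genes rose and none fell, and the HMGB2 libraries lay above the vector libraries in all 6. Cpt2, the inner-membrane transferase that rebuilds acyl-CoA in the matrix, had the largest rise of the 39 genes. It was at 66.2, 68.1 and 72.5 CPM with HMGB2 and at 26.5, 31.2 and 27.9 CPM with the vector. The lowest HMGB2 library was far above the highest vector library. The rise was 2.41-fold (log2 fold change 1.27, SE 0.09, edgeR adjusted p = 1.08e-05). Cpt2 (ENSMUSG00000028607) lies on GRCm38 chromosome 4, from 107903981 to 107923610.

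Crat, the acetyltransferase that moves short acyl groups to and from carnitine, was at 161, 168 and 163 CPM with HMGB2 against 89.3, 97.4 and 92.4 CPM with the vector. The groups were well separated, at 1.76-fold (log2 fold change 0.82, SE 0.07, adjusted p = 3.56e-05). Its exons overlap those of Dolpp1 on the other strand, with 9.56% of its counts. Cpt1b, the muscle form of the outer-membrane transferase and the controlled entry point, was at 14.2, 17.7 and 17.3 CPM with HMGB2 against 7.14, 8.55 and 8.16 CPM with the vector. Every HMGB2 library was higher, and the rise was 2.06-fold (log2 fold change 1.04, SE 0.13, adjusted p = 0.000432). Mlycd removes malonyl-CoA, the inhibitor of the outer-membrane transferase. It was at 16.4, 16.8 and 20.6 CPM with HMGB2 against 14.0, 11.3 and 11.4 CPM with the vector, again without overlap, with HMGB2 3 and vector 1 highest in their groups. It rose 1.47-fold (log2 fold change 0.55, SE 0.13, adjusted p = 0.0152), a call lost without vector 2 (adjusted p = 0.0687) or vector 3 (0.0609).

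Cpt1a, the liver form of the outer-membrane transferase, more prominent in the newborn than in the adult heart, was at 91.0, 87.5 and 82.9 CPM with HMGB2 against 58.0, 73.7 and 71.9 CPM with the vector. The groups did not overlap, and vector 1 was the lowest of all. Cpt1a rose 1.28-fold (log2 fold change 0.36, SE 0.10, adjusted p = 0.0256), which was lost without HMGB2 1 (adjusted p = 0.102) or HMGB2 2 (0.0846). Cpt1c, a form best known from brain, had a log2 fold change of 0.15 (adjusted p = 0.204). Cpt1b, the muscle form, took 19.1%, 23.5% and 23.9% of the summed FPKM of the 3 transferases in the HMGB2 libraries and 14.3%, 14.7% and 14.2% in the vector libraries, a difference of 7.79 percentage points. On CPM per transcript length the difference was 5.67 percentage points. Cpt1a was still the largest of the 3 on both scales, at 51.9% ± 1.77 of the FPKM sum with HMGB2 and 54.2% ± 2.54 with the vector (SD, n = 3 each). The windows of Cpt1a (match at position -94) and Cpt1c (position -146) held AGGTCA on 1 of the 2 strands. The bases shown for Cpt1a lie inside the gene as annotated by GENCODE, which starts at 3322334 on the plus strand. The 2 genes are shown as a pair because only Cpt1a passed the threshold although both hold the letters.
Cpt1a, chr19:3323190-3323229 (+): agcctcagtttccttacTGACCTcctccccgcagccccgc
Cpt1c, chr7:44974975-44975014 (-): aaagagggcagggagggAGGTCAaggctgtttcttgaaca

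**Figure D3:**
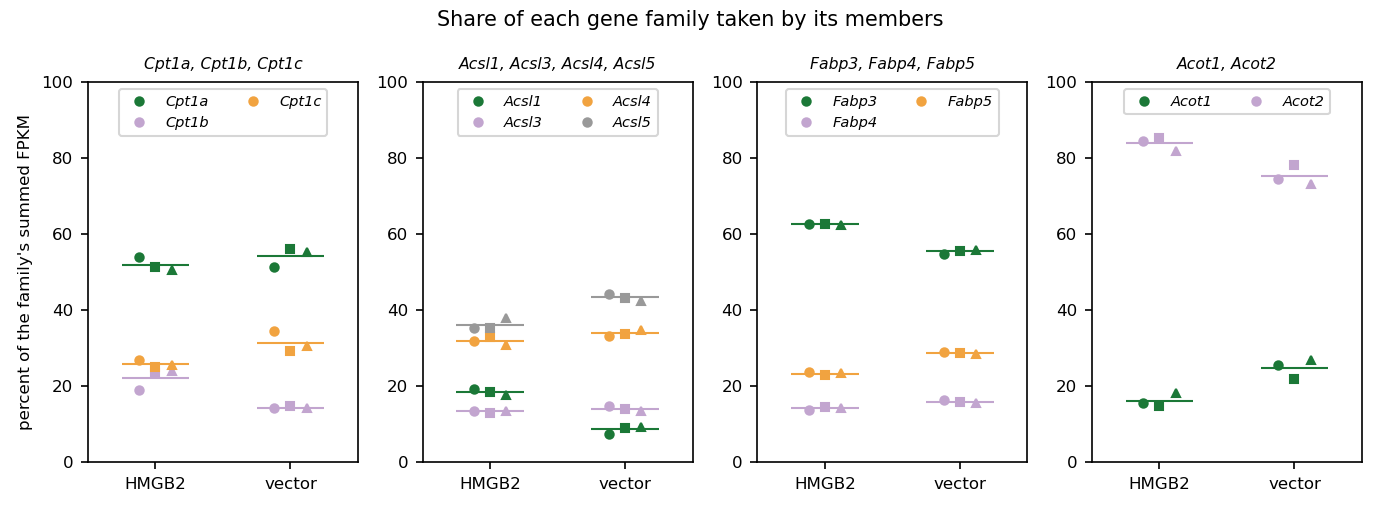
The y axis is the percent of each family's summed FPKM taken by a member, with 1 point per library (circle, square and triangle for libraries 1, 2 and 3), HMGB2 on the left and vector on the right of each panel, and bars at the means. Cpt1b, Acsl1, Fabp3 and Acot2 take a larger share in every HMGB2 library than in any vector library.

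Of 4 such shares compared, all were higher in every HMGB2 library than in any vector library. Fabp3 took 62.6%, 62.6% and 62.2% of the summed FPKM of Fabp3, Fabp4 and Fabp5 in the HMGB2 libraries and 54.8%, 55.6% and 55.8% in the vector libraries, a difference of 7.10 percentage points. Acot2 took 84.4%, 85.1% and 81.8% of the sum of Acot1 and Acot2 with HMGB2 and 74.4%, 78.0% and 73.0% with the vector, a difference of 8.61 percentage points. Each of the 4 shares had p = 0.1 by a two-sided exact permutation test (adjusted p over the 4 = 0.1), which is the smallest p that 3 against 3 libraries allow, so none can pass 0.05. Reads shared with Gm6166 bear on the Fabp5 part of the sum, and Acot1 and Acot2 are 95.1% identical over 56.1% of the Acot1 transcript, so these 2 shares depend on how shared reads were assigned. They also depend on length. Fabp4 and Fabp5 have implied lengths of 4490 and 3575 bases in the FPKM, against principal transcripts of 896 and 987 bases, and on CPM per transcript length Fabp3 took 28.8% ± 0.25 of its family with HMGB2 and 23.2% ± 0.385 with the vector (SD, n = 3 each), less than Fabp5. On that scale Acot2 took 74.9% ± 2.31 with HMGB2 and 63.7% ± 3.23 with the vector. The direction of all 4 differences was the same on both scales.

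Beta-oxidation was the step with the most genes past the threshold, with 13 of 15 risen, none fallen and a median log2 fold change of 0.50. Its genes summed to 632, 642 and 709 FPKM with HMGB2 and to 433, 380 and 387 FPKM with the vector. Acaa2, the mitochondrial thiolase that cleaves off acetyl-CoA, was at 244, 253 and 270 CPM with HMGB2 and at 144, 122 and 118 CPM with the vector. The groups stood well apart, at 1.99-fold (log2 fold change 1.0, SE 0.09, edgeR adjusted p = 6.08e-05). Acadm, the dehydrogenase of medium-chain acyl-CoA, was at 190, 191 and 221 CPM with HMGB2 and at 114, 103 and 105 CPM with the vector. It too was higher in every HMGB2 library, at 1.88-fold (log2 fold change 0.91, SE 0.08, adjusted p = 7.08e-05). Hadh, which oxidizes medium- and short-chain hydroxyacyl-CoA, was at 92.7, 90.7 and 102 CPM with HMGB2 and at 57.0, 49.8 and 55.7 CPM with the vector. It rose 1.75-fold without overlap (log2 fold change 0.81, SE 0.08, adjusted p = 0.000124).

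The dehydrogenases that open each round differed in how much they moved. Acadl, for long chains, was at 432, 439 and 478 CPM with HMGB2 and at 297, 266 and 281 CPM with the vector, and was among the most abundant of the 39 genes per length, at 226 ± 14.2 FPKM with HMGB2 and 139 ± 8.49 FPKM with the vector (SD, n = 3 each). It rose 1.60-fold (adjusted p = 0.000212). Acadvl, for very long chains, rose 1.4-fold (adjusted p = 0.00150; its exons overlap those of Dvl2 on the other strand, with 18.9% of its counts), Acads, for short chains, 1.35-fold (adjusted p = 0.0107) and Acad11, a less studied family member, 1.62-fold (adjusted p = 0.00445). Acads did not pass without HMGB2 2 (adjusted p = 0.0515) or vector 2 (0.0525). Acad10 had a log2 fold change of 0.01 (adjusted p = 0.970), with a level of 0.657 ± 0.0416 FPKM with HMGB2 and 0.640 ± 0.141 FPKM with the vector that was among the lowest of the 39 genes. Its paralog Acad12 is 95.3% identical over 42.2% of the transcript and has a count equal to 69.5% of that of Acad10 (log2 fold change 0.74, adjusted p = 0.0491). With the counts of both added, the log2 fold change was 0.30 (adjusted p = 0.271).

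Hadha and Hadhb encode the 2 subunits of the trifunctional protein, which carries out the last 3 reactions of a round on long chains. Hadha was at 306, 309 and 307 CPM with HMGB2 and at 215, 216 and 221 CPM with the vector, a narrow spread in both groups, and rose 1.41-fold (log2 fold change 0.50, SE 0.06, edgeR adjusted p = 0.000457). Hadhb was at 68.8, 67.7 and 69.3 CPM with HMGB2 and at 46.0, 43.7 and 41.8 CPM with the vector, also without overlap, and rose 1.57-fold (log2 fold change 0.65, SE 0.07, adjusted p = 0.000211). The level of Hadhb is uncertain, because the processed copy Hadhb-ps is 99.8% identical over 69.7% of the Hadhb transcript and holds 122% of its counts. Hadhb-ps itself had a log2 fold change of 0.66 (adjusted p = 0.000364). With the counts of Hadhb and its copies added, the level was 154 ± 3.62 CPM with HMGB2 and 98.1 ± 6.05 CPM with the vector (SD, n = 3 each), and the log2 fold change was 0.65 as before (adjusted p = 0.000208). The fold change was thus the same with and without the copies, while the level was not.

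The genes Hadha (GRCm38 chromosome 5, 30118304 to 30155162, minus strand) and Hadhb (30155248 to 30184593, plus strand) start head to head, with 85 bases between their annotated starts. The interval is shown whole, on the plus strand from 5′ to 3′, because the 2 genes that start on either side of it both rose. Capitals mark GGGCGG, the box bound by Sp factors, which is there at 2 places.
Hadha-Hadhb interval, chr5:30155163-30155247 (+): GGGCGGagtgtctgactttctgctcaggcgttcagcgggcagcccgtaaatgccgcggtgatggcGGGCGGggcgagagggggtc
GGGCGG, read on both strands, was common. It was in a window of 23 of the 31 matched members (74.2%) and of 67.2% of the tested genes with an entry. AGGTCA was not in this interval, but in those of Acadvl (position -87), Acadm (position -249) and Echs1 (position -83), which are shown with the match in capitals as the 3 beta-oxidation genes that held it. All 3 rose.
Acadvl, chr11:70015493-70015532 (-): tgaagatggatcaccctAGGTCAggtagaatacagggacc
Acadm, chr3:153944854-153944893 (-): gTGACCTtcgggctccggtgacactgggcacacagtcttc
Echs1, chr7:140116482-140116521 (-): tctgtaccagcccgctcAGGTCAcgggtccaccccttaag

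Enzymes that hydrate, rearrange or reduce double bonds made up the rest of the step, and 4 of 5 rose. Decr1, the dienoyl-CoA reductase needed for polyunsaturated chains, rose 1.44-fold (edgeR adjusted p = 0.0125), Ech1, a dienoyl-CoA isomerase, 1.38-fold (adjusted p = 0.00275), Eci2, an enoyl-CoA isomerase, 1.33-fold (adjusted p = 0.0297) and Echs1, the short-chain hydratase, 1.31-fold (adjusted p = 0.0172). The other isomerase, Eci1, had a log2 fold change of 0.28 (adjusted p = 0.112) with overlapping groups, and passed without vector 1 (adjusted p = 0.0149). Decr1 did not pass without vector 2 (adjusted p = 0.0634) or vector 3 (0.0543), and neither did Echs1 (0.0737 and 0.0713 for these libraries in turn). Eci2 passed without vector 1 and did not pass without any one of the other 5 libraries (adjusted p = 0.0539 to 0.116) or on FPKM (0.0582 and 0.0575 for the 2 pseudocounts).

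In electron transfer, 2 of 3 genes rose and the third did not pass. Etfdh, which hands the electrons to ubiquinone in the inner membrane, was at 124, 128 and 140 CPM with HMGB2 and at 81.0, 77.0 and 79.8 CPM with the vector. The groups were clearly apart, at 1.65-fold (log2 fold change 0.72, SE 0.07, edgeR adjusted p = 0.000122). Exons of Etfdh overlap those of 4930579G24Rik on the other strand, with 7.89% of its counts and a log2 fold change of 0.45. Etfb, a subunit of the flavoprotein, was at 33.6, 36.2 and 44.5 CPM with HMGB2 and at 31.3, 27.2 and 21.9 CPM with the vector. HMGB2 1 and vector 1 were close together, although the groups did not overlap. Etfb rose 1.42-fold (log2 fold change 0.51, SE 0.15, adjusted p = 0.0311), a call lost without HMGB2 2 (adjusted p = 0.0657), HMGB2 3 (0.0796), vector 2 (0.0913) or vector 3 (0.103) and on FPKM (0.0625 and 0.0619 for the 2 pseudocounts). Etfa, its partner subunit, was at 123, 120 and 147 CPM with HMGB2 and at 118, 102 and 95.2 CPM with the vector, which did not pass (log2 fold change 0.31, SE 0.10, adjusted p = 0.0568). It passed without vector 1 (adjusted p = 0.00667), the library nearest to the HMGB2 group.

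Among the peroxisomal enzymes and thioesterases, 2 of 5 rose and 3 did not pass. Acot13, a thioesterase that associates with mitochondria, was at 55.9, 59.1 and 66.1 CPM with HMGB2 and at 44.7, 35.5 and 41.4 CPM with the vector. All HMGB2 libraries were higher, at 1.49-fold (log2 fold change 0.58, SE 0.10, edgeR adjusted p = 0.00347). Per length it was at 81.6 ± 7.68 FPKM with HMGB2 against 54.0 ± 6.55 FPKM with the vector (SD, n = 3 each). Acaa1a, the peroxisomal thiolase, was at 26.6, 26.3 and 27.9 CPM with HMGB2 and at 22.3, 19.1 and 19.2 CPM with the vector. The groups did not overlap and the rise was 1.33-fold (log2 fold change 0.42, SE 0.10, adjusted p = 0.0117), lost without vector 2 (adjusted p = 0.0557) or vector 3 (0.0509). Its exons overlap those of Myd88 on the other strand, which had more counts than Acaa1a.

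Acot2, the mitochondrial thioesterase, had a log2 fold change of 0.54 (edgeR adjusted p = 0.0509), with HMGB2 libraries at 9.62, 9.03 and 11.5 CPM and vector libraries at 6.66, 8.55 and 5.51 CPM. Its groups did not overlap, and it passed without vector 2 (adjusted p = 0.0280). Acot1, the cytosolic neighbour on chromosome 12, had a log2 fold change of -0.18 (adjusted p = 0.588). The sum of Acot1 and Acot2 had a log2 fold change of 0.31 (adjusted p = 0.191). Hacl1, which shortens branched chains in peroxisomes, had one of 0.40 (adjusted p = 0.161), at a level below 1 FPKM, and its exons overlap those of the much more abundant Btd.

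**Figure D4:**
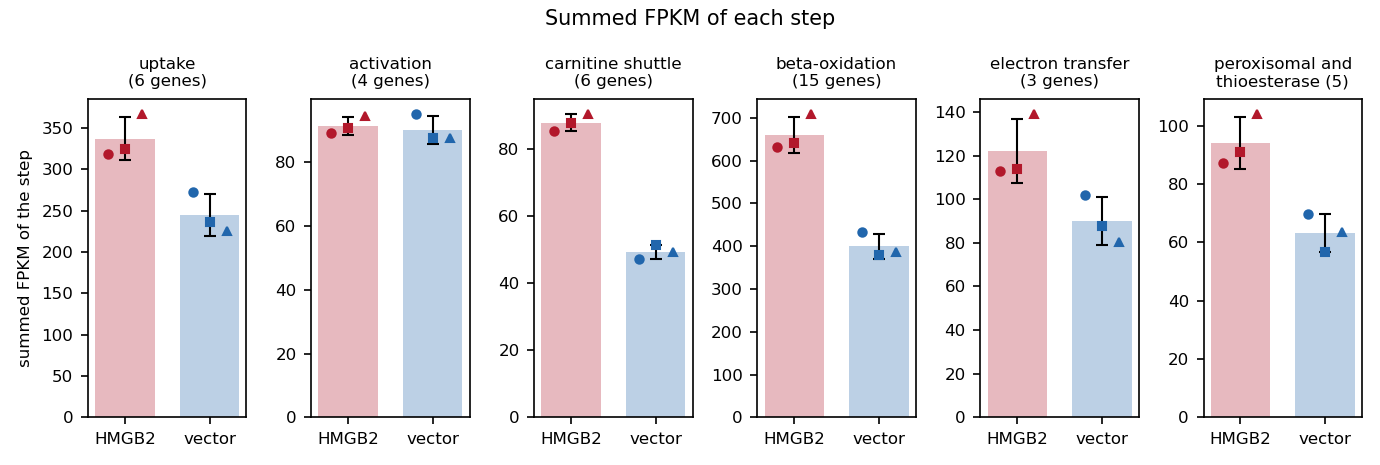
Bars are means of the summed FPKM of each step's genes over 3 libraries, error bars are the SD, and points are libraries (circle, square and triangle for libraries 1, 2 and 3), with HMGB2 to the left of vector. On this scale the groups are apart in every step but activation, where 89.0 to 94.4 FPKM with HMGB2 overlaps 87.4 to 95 FPKM with the vector; on summed CPM activation is apart too.

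The steps thus differed in how many of their genes moved. Summed FPKM per step was 319 to 367 with HMGB2 against 225 to 273 with the vector for uptake. For the carnitine shuttle it was 85.3 to 90.3 with HMGB2 against 47.1 to 51.3 with the vector, and for electron transfer 113 to 139 with HMGB2 against 80.6 to 102 with the vector. For the peroxisomal and thioesterase genes it was 87.2 to 104 with HMGB2 against 56.7 to 69.6 with the vector. HMGB2 3 and vector 1, apart on that second component, both ran high for most of these genes. The median of the 39 genes in HMGB2 3 was 0.15 above its mates on the log2 scale, and that in vector 1 was 0.11 above its mates. The carnitine shuttle was the exception, with a median in vector 1 that was -0.12 from its mates. Some marker genes ran low in both of these libraries instead. Ttn was at 1273 CPM in HMGB2 3, against 3101 and 2989 CPM in HMGB2 1 and HMGB2 2. It was at 833 CPM in vector 1, against 2217 and 2465 CPM in vector 2 and vector 3. Ryr2 and Fn1 were likewise lowest of their groups in HMGB2 3 and vector 1. The cause was not tested. With both HMGB2 3 and vector 1 left out, 30 of the 39 genes rose and 1 fell. Calls grew over all genes too, to 3265 higher and 2986 lower of 15644 tested, against 2224 and 1662 of 15429 with all 6 libraries.

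Of 68 other genes of fatty acid metabolism, listed with earlier results of these data known, 65 were tested by edgeR. Of these, 27 rose, 3 fell and 35 did not pass, with a median log2 fold change of 0.28. Over all 15429 genes tested, 14.4% rose and 10.8% fell. Around the carnitine shuttle, 3 of 5 rose. Acacb, the acetyl-CoA carboxylase on the outer mitochondrial membrane that makes malonyl-CoA, was at 80.9, 80.9 and 59.6 CPM with HMGB2 and at 17.3, 23.9 and 24.0 CPM with the vector. It rose 3.38-fold without overlap (log2 fold change 1.76, SE 0.16, adjusted p = 5.20e-05), while Acaca, the cytosolic carboxylase, named after its values were seen, was at 51.8 ± 10.3 CPM with HMGB2 and 58.8 ± 11.9 CPM with the vector (SD, n = 3 each; log2 fold change -0.18, adjusted p = 0.495). Prkaa2, the AMP-activated kinase subunit that inhibits acetyl-CoA carboxylases, rose 1.81-fold (adjusted p = 0.000863). Slc25a20, the carnitine-acylcarnitine carrier, rose 1.38-fold (adjusted p = 0.0265), which was lost in each fit without one library but that without vector 1 (adjusted p = 0.0541 to 0.108) and on FPKM (0.0542 and 0.0533).

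Among the other uptake genes, 2 of 10 rose and 2 fell, near the shares over all genes tested (14.4% and 10.8%). Vldlr, a receptor for triglyceride-rich lipoproteins, rose 1.32-fold (edgeR adjusted p = 0.00621). Slc27a4, another transport protein of the FATP family, rose 1.22-fold (adjusted p = 0.0368), lost with DESeq2 (0.0811) and in each fit without one library but that without vector 1 (0.0511 to 0.140). Acbd3, a Golgi protein with an acyl-CoA binding domain, fell by 0.34 on the log2 scale (adjusted p = 0.00692). Angptl4, which inhibits lipoprotein lipase and was named after its values were seen, fell by 0.32 on the log2 scale (adjusted p = 0.0393). Its call held without HMGB2 3 and was lost without any other single library (adjusted p = 0.0681 to 0.149), with DESeq2 (0.0786), on FPKM (0.0647 and 0.0652), with library totals (0.0588) and with no filter (0.0508).

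All 4 other activation genes tested rose by edgeR, and 2 of them did by DESeq2. Acss1 and Acss2, which activate acetate in mitochondria and cytosol, rose 4.09-fold (edgeR adjusted p = 0.000276) and 1.94-fold (adjusted p = 3.00e-05). Acss1 was at 5.47, 7.17 and 5.88 CPM with HMGB2 and at 2.0, 1.39 and 1.14 CPM with the vector. Acsf2 and Acsf3 rose 1.3-fold (adjusted p = 0.0432) and 1.35-fold (adjusted p = 0.0459), and neither passed with DESeq2 (0.111 for Acsf2 and 0.118 for Acsf3). Acsf2 was lost in each fit without one library but that without vector 3 (adjusted p = 0.0906 to 0.123), and Acsf3, named after its values were seen, in each but that without vector 2 (adjusted p = 0.0699 to 0.153), with RLE scaling (0.0514) and on FPKM with the smaller pseudocount (0.0516). In beta-oxidation and the branched-chain routes that join it, 2 of 10 rose, near the 14.4% of all genes tested. Ivd, the dehydrogenase of leucine breakdown, rose 1.44-fold (adjusted p = 0.00114). Acad8, that of valine breakdown, rose 1.36-fold (adjusted p = 0.0245) but not without HMGB2 1 (0.0826), HMGB2 3 (0.0575), vector 2 (0.0952) or vector 3 (0.0734). Without vector 1, 6 of these 10 genes rose, in a fit that called 2526 of 15823 genes higher.

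Of 20 other peroxisomal or thioesterase genes, 6 rose and 0 fell (9 higher and 0 lower at an unadjusted p under 0.05, and 6 and 0 by DESeq2). Ehhadh, the peroxisomal bifunctional enzyme, was at 7.27, 7.86 and 7.52 CPM with HMGB2 and at 2.97, 3.72 and 3.65 CPM with the vector, and rose 2.18-fold (edgeR adjusted p = 0.000698). Scp2, a peroxisomal thiolase and sterol carrier, rose 1.48-fold (adjusted p = 0.00206) and Phyh, which opens alpha-oxidation of branched chains, 1.34-fold (adjusted p = 0.0104). Crot and Acox3, named after their values were seen, rose 1.29-fold (adjusted p = 0.0139) and 1.28-fold (adjusted p = 0.0211). Crot did not pass without HMGB2 1 (0.0674) or HMGB2 2 (0.0574), and Acox3 did not without HMGB2 1 (0.0862), HMGB2 2 (0.0854) or vector 3 (0.0551). Without HMGB2 1 or without HMGB2 2, 3 of the 20 rose. Among genes of ketone body use, Bdh1, the mitochondrial hydroxybutyrate dehydrogenase, rose 1.99-fold (adjusted p = 0.000525). Oxct1, which activates acetoacetate, rose 1.21-fold (adjusted p = 0.0179) but not without HMGB2 2 (0.0750), vector 2 (0.0763) or vector 3 (0.0746).

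The last list held regulators and known targets of the pathway, of which 7 of 13 tested rose and 1 fell. All 8 are among the 11 that encode transcription factors or coactivators, the others being Ucp2 and Pdk4. Perm1, a muscle regulator that acts with the ERR receptors, was at 21.5, 20.2 and 21.6 CPM with HMGB2 and at 6.41, 7.01 and 6.87 CPM with the vector. It rose 3.12-fold (log2 fold change 1.64, SE 0.10, edgeR adjusted p = 7.39e-06). The 3 ERR receptor genes all rose, Esrrb 5.22-fold (adjusted p = 5.18e-05), Esrrg 2.23-fold (adjusted p = 8.64e-05) and Esrra 1.3-fold (adjusted p = 0.0132). Esrrb was low, at 6.43, 7.93 and 6.79 CPM with HMGB2 and at 1.04, 1.31 and 1.65 CPM with the vector, and Esrra did not pass without vector 2 (adjusted p = 0.0569) or vector 3 (0.0587). Ppargc1a and Ppargc1b, the coactivators PGC-1alpha and PGC-1beta, rose 2.21-fold (adjusted p = 0.000205) and 2.43-fold (adjusted p = 0.00594).

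The PPAR receptor genes did not move together. Ppara, the form best known for driving fatty acid oxidation in heart, was at 2.16, 2.21 and 1.76 CPM with HMGB2 and at 1.04, 1.39 and 0.644 CPM with the vector. These are few counts, and its 1.99-fold rise (edgeR adjusted p = 0.0480) was kept in the fit without vector 2 and lost in those without any other single library (adjusted p = 0.0602 to 0.152) and with DESeq2 (0.123). Ppard was at 23.1, 26.5 and 23.8 CPM with HMGB2 and at 29.0, 31.1 and 33.4 CPM with the vector, and fell by 0.35 on the log2 scale (adjusted p = 0.0248). That call was lost without HMGB2 1 (0.113), HMGB2 3 (0.0643), vector 2 (0.0745) or vector 3 (0.0927) and on FPKM (0.0568 and 0.0565). Pparg had a log2 fold change of 0.08 (adjusted p = 0.679). Pdk4, a known PPAR target that limits pyruvate oxidation and was named after its values were seen, was at 46.5, 49.2 and 47.7 CPM with HMGB2 and at 49.8, 47.8 and 48.9 CPM with the vector (log2 fold change -0.03, SE 0.07, adjusted p = 0.797).

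**Figure D5:**
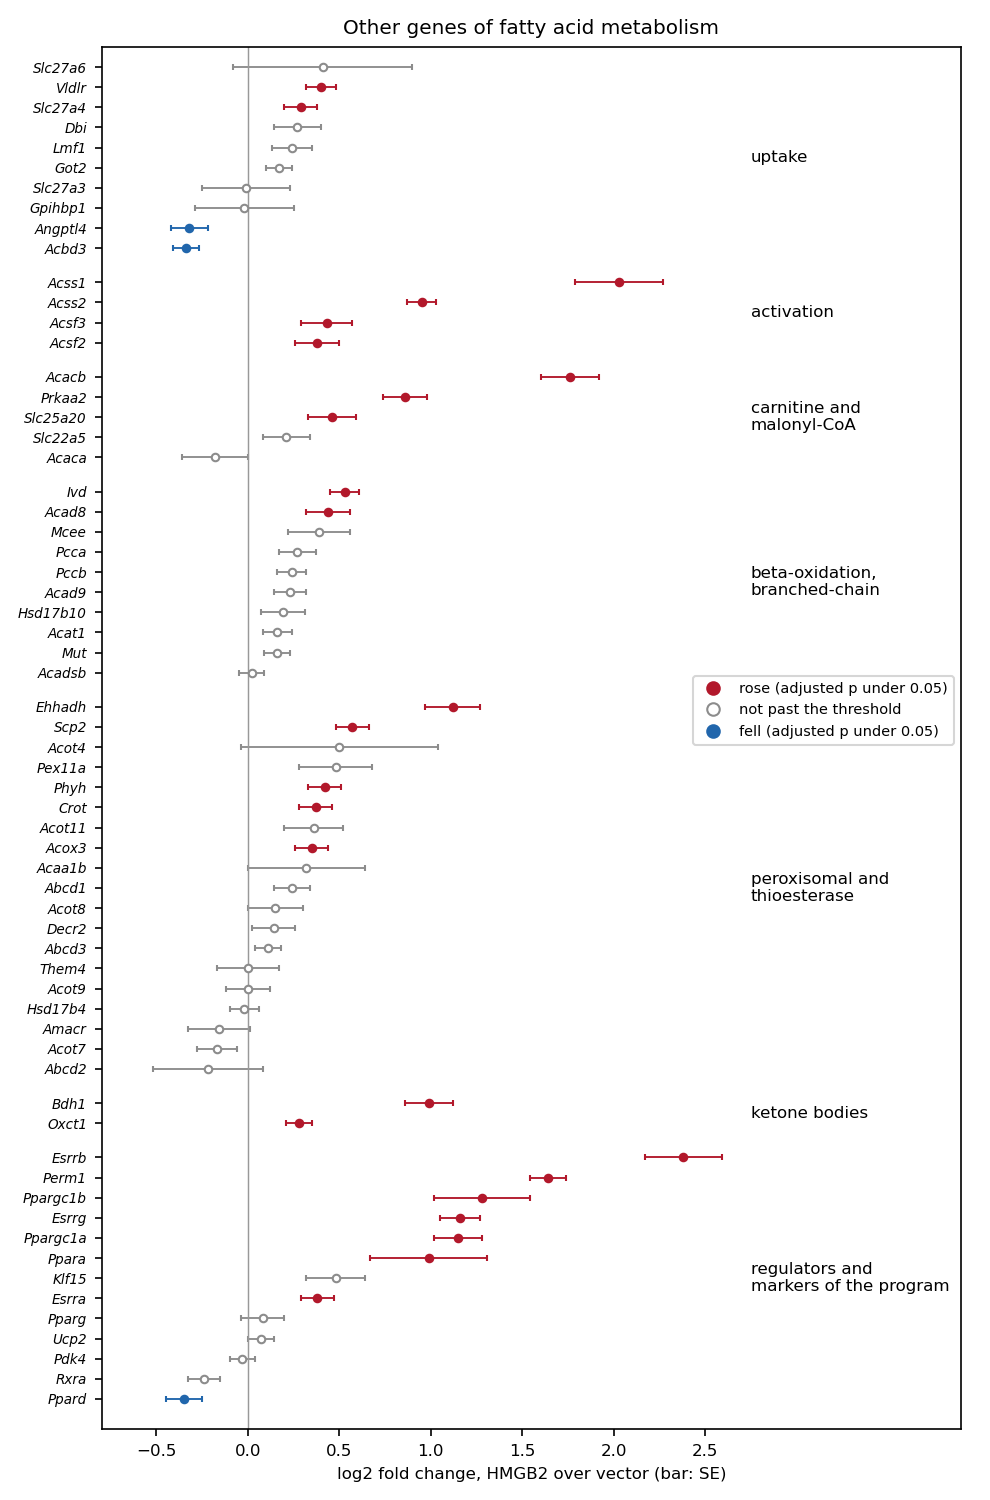
Points are the log2 fold changes of HMGB2 over vector for 63 other genes of fatty acid metabolism, with SE as bars, grouped by role. Of these, 25 rose (red), 3 fell (blue) and 35 did not pass (open); Esrrb, Acss1, Acacb and Perm1 lie farthest to the right.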

How the data were processed

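Bulk RNA was sequenced from 3 HMGB2 and 3 vector libraries. The authors deposited a table of raw counts per Ensembl gene and a table of FPKM values that, per the file headers, cover the same genes and libraries. For 2159 genes the gene length implied by the 2 tables varied between libraries by at most 0.0199% (coefficient of variation), so the deposited FPKM are those counts rescaled, and they served for levels across genes and as an alternative test on log2(FPKM + 1) or log2(FPKM + 0.1). Tools listed, without roles, per the submitters' processing notes are StringTie 1.3.3b, HTSeq 0.6.1, HISAT2 2.2.1 and FastQC 0.10.1, and the build listed is mm10. The strand setting is not given in the sources used here, so a gene and an overlapping partner on the other strand cannot be told apart, and reads of near-identical copies may be split between them.

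The count test was edgeR 4.0.16 (R 4.3.3): filterByExpr (minimum count 10, minimum total 15), TMM scaling, a robust quasi-likelihood model of group with no covariate, and Benjamini-Hochberg adjustment over all 15429 genes. The threshold was an adjusted p under 0.05, with no fold threshold, and a standard error (SE) is the size of the log2 fold change divided by √F. This count test was also run on counts simulated from the means and dispersions of these data. The outcome is not reported here, and no result rests on it. Replicates differed by more than sampling noise in every pair (smallest chi-square over its degrees of freedom 1.995). Alternatives were DESeq2 1.42.0, limma 3.58.1 on FPKM, RLE scaling, library totals without scaling, no filter and the replicate number as a block. Others left out each library in turn, or HMGB2 3 and vector 1 together. That pair stands out in the data and not in the labels. Between vector 2 and vector 3 the chi-square ratio was 2.765, against 18.62 and 20.63 for the pairs with vector 1. Between HMGB2 1 and HMGB2 2 it was 1.995, against 15.43 and 14.29 for the pairs with HMGB2 3. Leaving both out thus narrows the spread inside each group, and more calls follow. Chosen after seeing the data were counts summed with copies and shares on CPM divided by the length of the principal GENCODE transcript. Copies at 95% identity or more over at least 100 bases were found with blastn 2.17.0 in GENCODE M21 transcripts, and loci and exon overlaps are from GENCODE M21 (GRCm38), matched by gene ID. Promoter windows are RefSeq's (GRCm38.p6).

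The members and all lists were chosen with earlier results of these data known. All 39 members are named, with values per library for up to 4 genes of each step past the threshold with the smallest p and for every gene that fell, and, chosen after their values were seen, for Cpt1a, Acadl, Hadha, Etfa and Acot2. Of other pathway genes, up to 3 per list past the threshold with the smallest p are named, and Ppara, Ppard, Pparg, Ppargc1a, Ppargc1b, Esrra and Esrrg whatever their result. Some genes of these lists are counted but not reported here.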

Additional observations from a re-analysis of the deposited data

How the results depend on the processing

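Of the 26 genes that rose, 18 kept their call in all 14 alternatives and 8 lost it in some (Cpt1a, Mlycd, Acads, Echs1, Eci2, Decr1, Etfb and Acaa1a). The number that rose was 24 to 28 under DESeq2, FPKM, other scalings or no filter, 20 to 29 with 1 library left out, and 30 without HMGB2 3 and vector 1. Acsl5 was the 1 gene that fell, and 0 fell with either FPKM pseudocount, with library totals or with the replicate block (0 to 1 with 1 library left out). Over all genes, 3886 passed the threshold; this was 2433 to 4486 with 1 library left out (2433 without HMGB2 1, 2506 without HMGB2 2, 2566 without vector 2) and 6251 without HMGB2 3 and vector 1. Deviations of same-numbered libraries correlated at -0.318, 0.231 and -0.375, so the numbers were not taken to pair the samples; the fit with the replicate block called 2213 genes and 19 of the 39 as risen, none as fallen. Fabp5 ranged between -0.06 and 0.15 and Acad10 between -0.13 and 0.20 with 1 library left out. Fabp5 was at -0.06 without HMGB2 3, -0.01 without vector 2, -0.05 without vector 3 and -0.01 with copies summed; Acad10 was at -0.13 without vector 3, -0.03 without HMGB2 2, -0.02 without vector 1 and -0.00 without HMGB2 1. On CPM without length, the share differences became 4.54 (Cpt1b), 15.7 (Acsl1), 5.16 (Fabp3) and 11.4 (Acot2) percentage points, and on CPM per transcript length (chosen after seeing the data) 5.67, 17, 5.58 and 11.3 in the same order; with 1 library left out they were 6.93 to 9.31, 9.32 to 10.3, 6.79 to 7.32 and 7.56 to 10. The causes of these changes were not tested. Acad10, among the lowest, rests on 44 to 68 reads per library.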

Other observations

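The order of the 39 genes by level depended on the length by which counts were divided. Acadl was at 226 FPKM with HMGB2 and 139 FPKM with the vector, Acaa2 at 170 FPKM with HMGB2 and 83.9 FPKM with the vector, and Fabp3 at 148 FPKM with HMGB2 and 103 FPKM with the vector, the 3 highest means on that scale in both groups. On CPM per kilobase of the principal transcript, Fabp5 was at 199 with HMGB2 and 195 with the vector, above Fabp3 at 147 with HMGB2 and 104 with the vector, and Acadl was first with HMGB2 (235) and at rank 3 with the vector (147). Cd36 stood higher in the order with HMGB2 on both scales, at rank 9 with HMGB2 and rank 16 with the vector by FPKM, and at rank 17 with HMGB2 and rank 23 with the vector per transcript length. Across the 39 genes, the log2 fold change had a Spearman's rho of 0.17 with the mean FPKM (genes of the same 6 libraries, which are not independent replicates). The Hadhb to Hadha ratio of FPKM was 0.298, 0.290 and 0.299 in the HMGB2 libraries and 0.283, 0.267 and 0.25 in the vector libraries, without overlap, and both values leave out the reads assigned to Hadhb-ps.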
